A study of Homo sapiens with 6 samples.

Results

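The MYC and MAX network is a family of transcription factors that dimerise through a basic helix-loop-helix leucine zipper and bind the E-box, the DNA word CACGTG and its variants. The 10 genes described here were taken from the tables by symbol, without a threshold on their values: *MYC*, *MAX*, *MNT*, *MXD1*, *MXD3*, *MXD4*, *MXI1*, *MGA*, *MLX* and *MLXIP*, each present as 1 row among the 57820 genes of the tables. They were compared between 3 CTCF-WT and 3 CTCF-dRBR libraries of ribosomal RNA-depleted total RNA. Both groups came from SEM, a human B-cell acute lymphoblastic leukaemia line, with endogenous CTCF fused to miniAID-mClover3 and the ubiquitin ligase adaptor OsTIR1(F74G) expressed constitutively. Both received the degron ligand 5-Ph-IAA for 24 h, of which 6 h came before the 18 h of doxycycline at 1 µg/mL. Doxycycline induced HA-tagged full-length CTCF in the CTCF-WT group and, from a TRE3G promoter, HA-tagged CTCF without its RNA-binding region (RBR) in the CTCF-dRBR group. The CTCF-WT labels give only the CTCF-miniAID-mClover3 genotype, and the transgene of that group is known from the methods. The sample titles carry the tag C27, and no label says that the 3 libraries of a group came from separate cultures. A p-value therefore measures only the spread between these libraries, which may be technical.

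MAX is the shared partner of the network. MYC with MAX activates genes for growth and ribosome synthesis, while MNT, MXD1, MXD3, MXD4 and MXI1 with MAX recruit SIN3 co-repressors to the same sites and MGA with MAX is a part of the Polycomb complex PRC1.6. MLX, which can also pair with several MXD proteins and MNT, joins MLXIP (also called MondoA) in a separate branch that senses glucose-derived metabolites. In B-cell precursors and their leukaemias MYC drives proliferation, and the balance between MYC and its repressing competitors is commonly read as a switch between growth and quiescence.

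Since the proteins bind CACGTG, the start regions of the members were searched for the same word. The RefSeq promoters used (GRCh38.p14, 250 bases before to 50 bases after a transcript start) held 14 start regions of 9 members, with no entry for *MYC*. The word, which reads the same on both strands, occurred in 3 of the 14, those of *MLX*, *MNT* and *MXD4*, while 2548 of all 35116 promoters (7.26%) held it. These 3 windows are shown because their genes belong to the network and also carry its recognition word, with the E-box in capitals and each read 5′ to 3′ on the strand of the gene. A match describes these letters and is not a measured binding site.
*MLX*, chr17:42567038-42567067, plus strand, E-box 50 bases before the start: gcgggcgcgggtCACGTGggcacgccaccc
*MNT*, chr17:2401236-2401265, minus strand, E-box 193 bases before the start: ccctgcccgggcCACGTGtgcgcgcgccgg
*MXD4*, chr4:2262330-2262359, minus strand, E-box 238 bases before the start: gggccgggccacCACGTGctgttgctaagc
In CPM, *MLX* was lower in every CTCF-dRBR library than in every CTCF-WT library, whereas the groups overlapped for *MNT* and *MXD4*. The start regions of the other members held no CACGTG within the window read here.

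The libraries held 30034505 to 53166735 expected counts, the lowest being CTCF-dRBR replicate 1. Protein-coding genes took 30.25% to 63.24% of a library's TPM (a level corrected for transcript length), lowest in CTCF-WT replicate 1 and highest in CTCF-dRBR replicate 1, so levels between genes are given as TPM rescaled to a common sum over protein-coding genes, and comparisons between groups as CPM (counts scaled to the library total) after TMM normalization. In each library, how far a gene's log2 CPM lay from its average over all 6 followed the GC content of its exons, with Spearman's rho across genes of 0.709, 0.674 and 0.339 in CTCF-WT replicates 1 to 3 and −0.78, −0.417 and 0.504 in CTCF-dRBR replicates 1 to 3. *CTCF* itself, counted without separating endogenous from induced transcripts, had 209.9, 211.2 and 248.6 CPM in CTCF-WT and 272.8, 263.7 and 252.1 CPM in CTCF-dRBR. The groups were narrowly apart, with a log2 fold change of 0.24 ± 0.10 (SE, limma-voom adjusted p = 0.202) that was positive in all 26 other fits. Of 6 B-lineage markers, 5 (*CD79A*, *CD79B*, *PAX5*, *EBF1* and *VPREB1*) had at least 1 rescaled TPM in every library, and their list summed to 464 to 544 in CTCF-WT and 320 to 646 in CTCF-dRBR. The summed T-cell markers reached at most 1.01 and the erythroid markers 0.127 rescaled TPM, with *CD3D*, *HBA1* and *ALAS2* at 0 counts throughout. Myeloid markers summed to 11.9 to 13.8 in CTCF-WT and 9.98 to 13.3 in CTCF-dRBR, mostly *LYZ* and *CSF1R* with *ELANE* at 0, and stromal markers to 25.1 to 31.5 and 26.0 to 41.4, where *PDGFRB* was the 1 marker above 1. In bulk RNA, fewer cells of a type and less RNA per cell cannot be told apart.

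*MYC* and *MAX* were the most abundant transcripts of the network and *MXD1* and *MNT* the least. Over the 6 libraries the median level was 157.4 rescaled TPM for *MYC*, 76.47 for *MAX*, 47.95 for *MGA*, 29.65 for *MXD3*, 25.53 for *MLX*, 18.45 for *MXI1*, 10.74 for *MXD4*, 8.874 for *MLXIP*, 3.618 for *MNT* and 2.095 for *MXD1*. Among neighbours in this order, only *MGA* and *MXD3* had ranges that did not overlap, with *MGA* at 36.0 or more and *MXD3* at 33.8 or less. Within a library, which needs no scaling, *MGA* took the third place in all 6. *MYC* led *MAX* in 5 libraries and followed it in CTCF-dRBR replicate 1. *MXI1* changed its place most, from places 6 to 8 in CTCF-WT to places 4 to 6 in CTCF-dRBR.

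**Figure D1:**
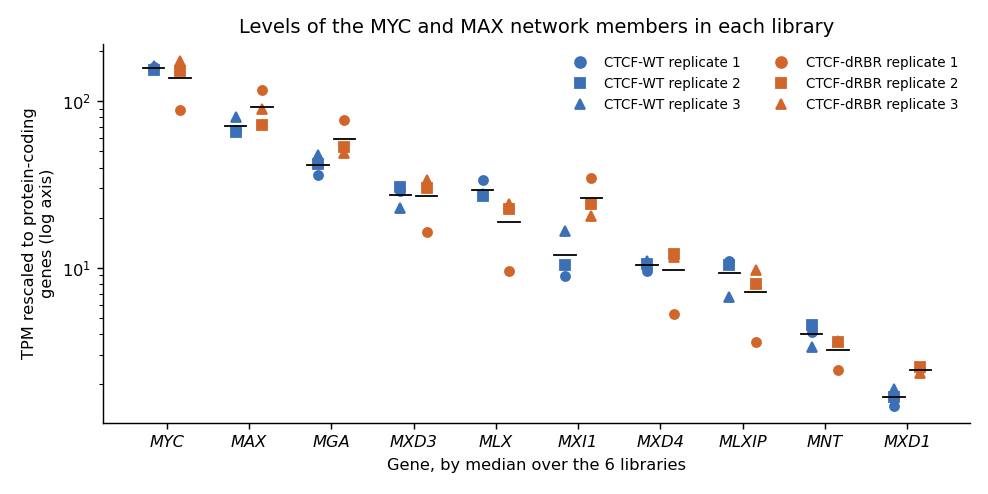
Level of each member in each library in TPM rescaled to protein-coding genes (log axis), with genes ordered by their median over the 6 libraries, CTCF-WT on the left and CTCF-dRBR on the right of each gene, and black bars at the group means. *MYC* and *MAX* stand highest, *MNT* and *MXD1* lowest, and CTCF-dRBR replicate 1 lies apart from its group for *MYC* (88.79 against 151.6 and 174.2).

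Between the groups, *MXI1* had the largest positive fold change of the 10 members and *MNT* and *MLX* the most negative, and none passed the main test. With limma-voom and Benjamini-Hochberg adjustment over the 14044 genes tested, 0 of the 10 members had an adjusted p under 0.05, where 0.0% of all genes did. At an unadjusted p under 0.05 the count was 1 of 10 (*MXI1*), against 25.4% of all genes tested. By edgeR's quasi-likelihood test 0 of 10 passed. DESeq2 called 1 of 10, *MXI1*, and 11.5% of all genes, and voomWithQualityWeights, which gave CTCF-dRBR replicate 1 a weight of 0.0969, called 6 of 10 and 68.2% of all genes. In CPM, 3 members had groups that did not overlap, *MXI1* and *MXD1* higher and *MLX* lower in CTCF-dRBR, which is a smaller share than the 37.5% of all genes tested. It was 6 without CTCF-WT replicate 3, where 61.5% of all genes did not overlap, and 7 without CTCF-dRBR replicate 3, where 64.8% did not. By direction, 20.0% of all genes lay wholly above and 17.5% wholly below.

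*MYC* (ENSG00000136997.10; GRCh37 chromosome 8, 128747680 to 128755197) encodes the activating partner of MAX. It had 237.4, 215.4 and 222.9 CPM in the 3 CTCF-WT libraries and 133.8, 195.7 and 229.4 CPM in the 3 CTCF-dRBR libraries. The CTCF-WT libraries lay close together, and the CTCF-dRBR libraries spread from well below them to within their range. This gave a log2 fold change of −0.30 ± 0.20 (SE, limma-voom adjusted p = 0.321), and −0.091 without CTCF-dRBR replicate 1. *PVT1*, the long noncoding RNA gene downstream of *MYC*, had 12.53, 13.32 and 11.91 CPM in CTCF-WT against 10.3, 9.615 and 11.94 CPM in CTCF-dRBR. The 2 highest of its 6 values belonged to CTCF-WT and the 2 lowest to CTCF-dRBR, with a log2 fold change of −0.25 ± 0.14 (SE, limma-voom adjusted p = 0.273).

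*MAX* (chromosome 14, 65472892 to 65569413), the obligate partner, had 58.49, 58.45 and 59.59 CPM in CTCF-WT and 75.0, 57.42 and 67.2 CPM in CTCF-dRBR. The CTCF-WT libraries were almost identical and the CTCF-dRBR libraries fell on both sides of them. The fitted log2 fold change was 0.16 ± 0.12 (SE, limma-voom adjusted p = 0.374). The exons of *MAX* share 822 bases with those of *FNTB* on the other strand, and 623 with *CHURC1-FNTB*. The deposited tables are labelled as stranded, and stranded counting assigns such reads by strand, while the setting itself was not given in the sources used here.

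*MXI1* (chromosome 10, 111967363 to 112047123), a MAX partner that recruits SIN3, was higher in CTCF-dRBR. It had 14.96, 16.4 and 18.21 CPM in CTCF-WT and 31.56, 24.15 and 22.55 CPM in CTCF-dRBR. The groups were wholly apart, and CTCF-dRBR replicate 1 was the highest. The log2 fold change was 0.62 ± 0.17 (SE), a 1.54-fold higher level with an unadjusted p of 0.00871 and an adjusted p of 0.139 by limma-voom. The sign was the same in all 26 other fits, with values from 0.48 to 1.6. An adjusted p under 0.05 was reached in 5 of these 26 fits, with an adjusted p between 0.000337 and 0.482 over all of them. Besides DESeq2 (adjusted p = 0.0169) and voomWithQualityWeights, the calls came from limma-trend on log2(TPM + 1), which called 5.93% of all genes, from limma-trend on log2(TPM + 0.1), which called 5.41%, and from limma-voom with the GC trend removed and CTCF-dRBR replicate 1 left out, which called 23.5%. Without CTCF-dRBR replicate 1 alone the log2 fold change was 0.50 ± 0.12 (SE, limma-voom adjusted p = 0.0685).

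On the rescaled TPM scale the distance was wider, with 8.992, 10.41 and 16.55 for *MXI1* in CTCF-WT and 34.57, 24.34 and 20.35 in CTCF-dRBR, a ratio of means of 2.204 (p = 0.1 by a two-sided exact permutation test, which cannot go lower with 3 against 3 libraries). TPM divides by the length of the transcripts to which reads were assigned, so a count and a TPM together imply a length. This length, relative to the median of 9559 protein-coding genes in the same library, was 1.18, 1.16 and 0.872 for *MXI1* in CTCF-WT and 0.736, 0.847 and 0.908 in CTCF-dRBR. These groups overlapped, with CTCF-WT replicate 3 among the CTCF-dRBR values. Over the 10 members the implied length did not overlap between groups for 4, shorter in CTCF-dRBR for *MXD1* and *MGA* and longer for *MLX* and *MLXIP*, against 16.2% of the 9559 genes. For *MLXIP* it went from 1.38, 1.51 and 1.76 to 2.34, 1.79 and 1.78, so the groups were only narrowly apart. The implied length also depends on the fragment lengths of a library, and which transcripts carried the reads was not tested.

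*MNT* (chromosome 17, 2287367 to 2304398), the most widely expressed MAX-binding repressor, had 8.437, 7.148 and 4.887 CPM in CTCF-WT and 2.809, 4.168 and 5.474 CPM in CTCF-dRBR. The groups overlapped, since CTCF-dRBR replicate 3 was above CTCF-WT replicate 3. The log2 fold change of −0.70 ± 0.31 (SE, limma-voom adjusted p = 0.21) was the most negative of the members, and it was −0.065 ± 0.15 (SE, adjusted p = 0.797) once the GC trend was removed from each library. The exons of *MNT* had 59.72% GC, against a median of 46.92% over the 13654 tested genes with a GC value.

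*MXD1* (chromosome 2, 70124820 to 70170077), known for its rise when cells leave the cycle and differentiate, had 5.278, 5.415 and 5.189 CPM in CTCF-WT and 6.319, 5.66 and 5.629 CPM in CTCF-dRBR. The groups were narrowly apart, with a log2 fold change of 0.14 ± 0.13 (SE, limma-voom adjusted p = 0.466). The sign turned to −0.062 with the GC trend removed, and there the groups overlapped. Its exons share 237 bases with those of *SNRNP27* on the same strand, a gene with a mean of 1621.5 expected counts.

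*MXD3* (chromosome 5, 176728462 to 176739758), which is linked to S phase in proliferating precursors, had 21.57, 21.44 and 13.21 CPM in CTCF-WT and 8.205, 14.32 and 20.34 CPM in CTCF-dRBR. *MXD4* (chromosome 4, 2249159 to 2263836) had 21.93, 22.67 and 18.1 CPM in CTCF-WT and 7.289, 17.39 and 23.27 CPM in CTCF-dRBR. For both genes the groups overlapped and CTCF-dRBR replicate 1 was the lowest of the 6 libraries. The log2 fold change was −0.41 ± 0.36 (SE, limma-voom adjusted p = 0.436) for *MXD3* and −0.48 ± 0.39 (SE, adjusted p = 0.406) for *MXD4*, and both changed sign with the GC trend removed, to 0.16 and 0.18. The exons of *MXD3* share 1148 bases with *PRELID1* on the other strand, a gene with a mean of 5789.58 expected counts, and 926 bases with *RAB24* on the same strand, so its values are uncertain where it overlaps *RAB24*.

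*MGA* (chromosome 15, 41913332 to 42065279), the large scaffold of PRC1.6, had 178.5, 191.7 and 192.6 CPM in CTCF-WT and 255.5, 193.4 and 182.6 CPM in CTCF-dRBR. The CTCF-dRBR mean was set by replicate 1, with the other 2 libraries within or next to the CTCF-WT range. The log2 fold change was 0.15 ± 0.14 (SE, limma-voom adjusted p = 0.477), and −0.00082 without CTCF-dRBR replicate 1. In rescaled TPM the groups did not overlap for 4 members, *MGA*, *MXI1* and *MXD1* higher and *MLX* lower, against 34.6% of all genes tested.

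*MLX* (chromosome 17, 40719090 to 40725257), the partner shared by MLXIP and several repressors, was lower in CTCF-dRBR. It had 42.39, 34.01 and 32.34 CPM in CTCF-WT and 12.91, 27.29 and 28.94 CPM in CTCF-dRBR. The groups were wholly apart, and CTCF-dRBR replicate 1 was far below its other 2 libraries. The log2 fold change was −0.67 ± 0.30 (SE, limma-voom adjusted p = 0.21), −0.36 ± 0.14 (SE, adjusted p = 0.14) without CTCF-dRBR replicate 1 and −0.41 ± 0.17 (SE, adjusted p = 0.159) with the GC trend removed. It was negative in all 26 other fits, from −0.87 to −0.24, and passed the threshold only with voomWithQualityWeights (adjusted p = 0.0103). In deposited TPM, before rescaling, the *MLX* groups overlapped, with 10.22, 9.62 and 14.57 in CTCF-WT and 6.02, 12.36 and 10.53 in CTCF-dRBR (p = 0.6 by exact permutation). The exons of *MLX* share 775 bases with those of *PSMC3IP* on the other strand.

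*MLXIP* (chromosome 12, 122516628 to 122631894), the glucose-sensing partner of MLX, had 21.34, 21.23 and 14.78 CPM in CTCF-WT and 10.47, 16.79 and 21.18 CPM in CTCF-dRBR. Its groups overlapped, with a log2 fold change of −0.24 ± 0.29 (SE, limma-voom adjusted p = 0.553). It was 0.17 ± 0.11 (SE, adjusted p = 0.342) once the GC trend was removed.

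The fold changes of the members ran with the GC content of their exons. *MGA*, *MXD1*, *MXI1* and *MAX*, with 42.41% to 49.24% GC, were higher in CTCF-dRBR, and *MYC*, *MLX*, *MLXIP*, *MXD3*, *MNT* and *MXD4*, with 51.73% to 60.13% GC, were lower. Spearman's rho between exon GC and log2 fold change was −0.782 over the 10 members and −0.682 over the 13654 tested genes with a GC value, a description over genes that share the same libraries. Genes with less than 45% GC had a median log2 fold change of 0.25, and genes with 55% or more of −0.60. With the GC trend removed, 5 members were higher and 5 lower, and 0 of 10 had an adjusted p under 0.05 where 9.22% of all genes did. In those values *MXI1* (0.61 ± 0.15, SE; limma-voom adjusted p = 0.0555) and *MLX* were the 2 members whose groups did not overlap, against 39.4% of genes. Without CTCF-dRBR replicate 1, 0 of 10 members were called, and 3.9% of all genes. *MXI1*, *MLX*, *MYC*, *MNT* and *MAX* kept their sign under both settings, while *MXD1*, *MGA*, *MXD3*, *MXD4* and *MLXIP* changed sign when the GC trend was removed.

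**Figure D2:**
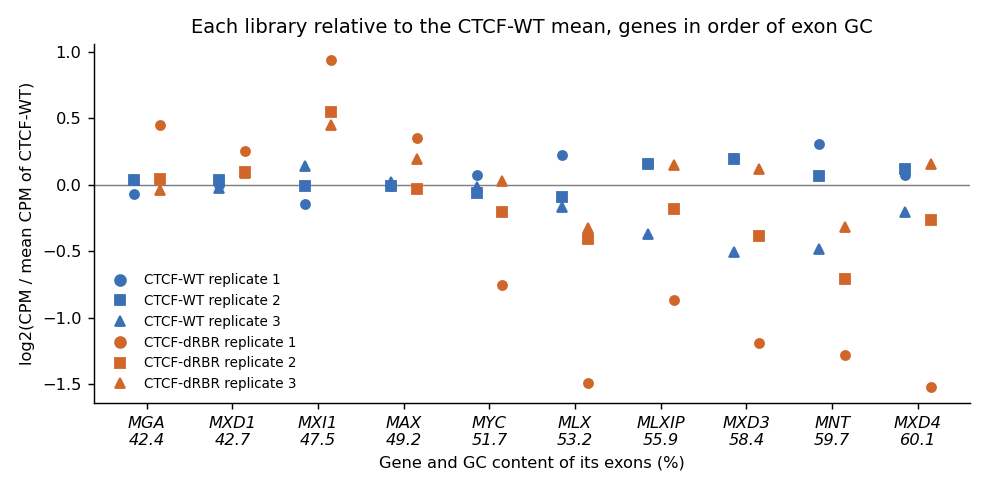
CPM of each library relative to the mean of CTCF-WT (log2), genes ordered from left to right by the GC content of their exons in percent. CTCF-dRBR replicate 1 (orange circles) is above the CTCF-WT mean for the 4 genes of lowest GC content and below it for the 6 of highest. *MXI1*, *MLX* and, narrowly, *MXD1* are set apart from CTCF-WT in all 3 CTCF-dRBR libraries.

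**Figure D3:**
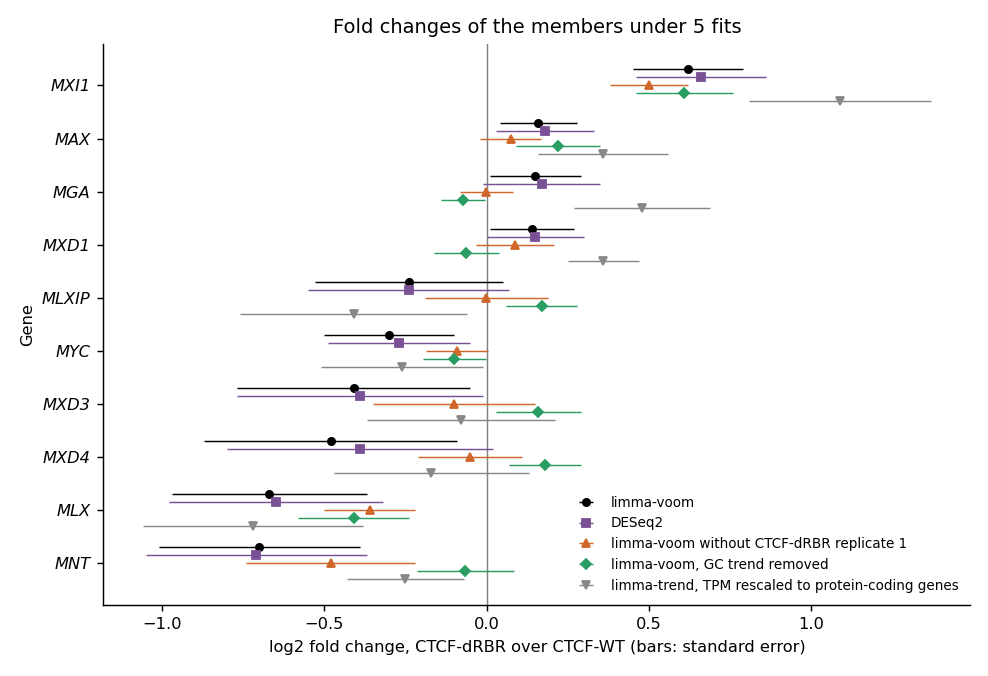
Log2 fold change of each member, CTCF-dRBR over CTCF-WT, with its standard error under 5 fits. *MXI1* and *MAX* lie to the right of 0 and *MLX*, *MNT* and *MYC* to the left in each of the 5. *MNT* is at −0.065 when the GC trend was removed, and 5 members change side with that removal.

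The make-up of the network can be read within a library, since a share of the summed TPM of the 10 members does not depend on how libraries are scaled. *MYC* made up 44.5%, 43.2% and 42.6% of this sum in CTCF-WT and 24.9%, 39.9% and 41.7% in CTCF-dRBR. The 6 repressing partners of MAX (*MNT*, *MXD1*, *MXD3*, *MXD4*, *MXI1* and *MGA*) made up 24.6%, 28.0% and 27% in CTCF-WT and 38.7%, 33.1% and 28.8% in CTCF-dRBR. In TPM, *MYC* was thus a smaller and the repressing partners a larger share in every CTCF-dRBR library. The nearest libraries of the groups were at 42.6% and 41.7% for *MYC* and at 28.0% and 28.8% for the partners. *MLX* with *MLXIP* took 12.4%, 10.5% and 9.06% in CTCF-WT and 3.68%, 8.08% and 8.11% in CTCF-dRBR, again without overlap. The share of *MAX* overlapped, at 18.4% to 21.3% in CTCF-WT and 18.9% to 32.7% in CTCF-dRBR. All these shares rest on TPM, and the implied length did not overlap between groups for *MXD1*, *MGA*, *MLX* and *MLXIP*. In CPM the groups overlapped for *MYC* and *MGA*, and shares of the summed CPM were not computed.

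Set against *MYC*, the summed repressing partners had 0.554, 0.647 and 0.633 TPM per TPM of *MYC* in CTCF-WT and 1.55, 0.831 and 0.691 in CTCF-dRBR. The order of the groups was the same with the GC trend removed from these TPM values (0.563, 0.651 and 0.65 against 1.3, 0.829 and 0.694). Both versions start from TPM, and the ratio was not computed in CPM. By limma-voom on counts, *MNT*, *MXD3* and *MXD4* had negative log2 fold changes (−0.70, −0.41 and −0.48). Those of *MXI1*, *MXD1* and *MGA* were positive (0.62, 0.14 and 0.15). Within this sum, *MXI1* went from 0.0558, 0.0677 and 0.102 per TPM of *MYC* to 0.389, 0.161 and 0.117, with no overlap. *MGA*, the largest part of the sum, overlapped, with 0.223, 0.272 and 0.292 against 0.866, 0.35 and 0.279.

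**Figure D4:**
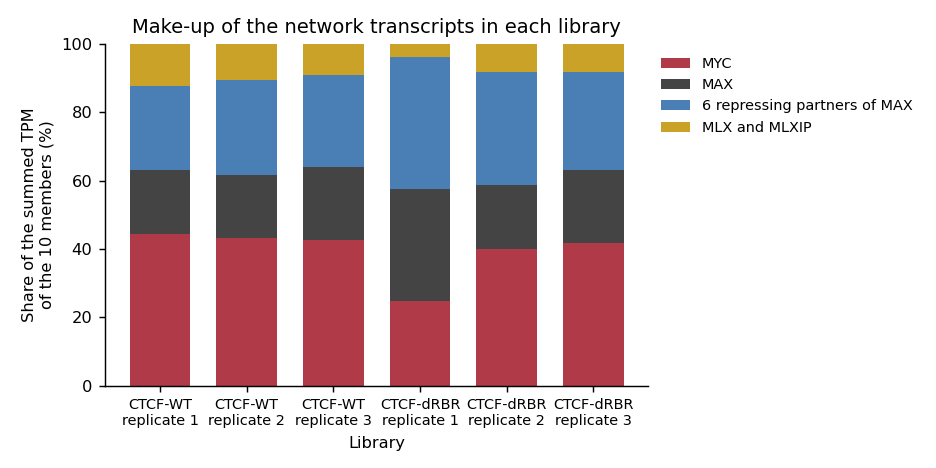
Share of the summed TPM of the 10 members taken by *MYC*, *MAX*, the 6 repressing partners of MAX and *MLX* with *MLXIP*, as stacked bars for each library. *MYC* takes 42.6% to 44.5% in CTCF-WT and 24.9% to 41.7% in CTCF-dRBR, and CTCF-dRBR replicate 1 departs most.

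Each member was also set against its partner *MAX* in the same library. The *MXI1* to *MAX* ratio was 0.134, 0.159 and 0.204 in CTCF-WT and 0.297, 0.339 and 0.227 in CTCF-dRBR, higher in all CTCF-dRBR libraries. The *MLX* to *MAX* ratio was 0.504, 0.411 and 0.343 in CTCF-WT and 0.0817, 0.316 and 0.27 in CTCF-dRBR, lower in all. The *MYC* to *MAX* ratio was 2.4, 2.35 and 2.0 against 0.762, 2.11 and 1.94, so *MYC* exceeded *MAX* in every library other than CTCF-dRBR replicate 1, and the groups overlapped. Of the 9 ratios, these of *MXI1* and *MLX* reached the smallest p the design allows (exact permutation test, two-sided, p = 0.1; adjusted over the 9 ratios, 0.45). The other 7 ratios overlapped between the groups, with exact permutation p between 0.2 and 0.6. How many of all genes would not overlap in their ratio to *MAX* was not computed. In CPM alone, 37.5% of all genes tested did not overlap.

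Genes around the network were read in 8 lists of partners, regulators and known targets, none of which held a gene with an adjusted p under 0.05 by limma-voom. These lists were chosen with earlier results of these data known, so their counts and medians are descriptions and no independent check. Of 33 tested genes known to be induced by MYC, 28 had a negative log2 fold change and 22 an unadjusted p under 0.05 with a lower level in CTCF-dRBR, where 12.8% of all genes tested were lower at that threshold. The median log2 fold change of this list was −0.54, against −0.0076 over all genes tested. Examples were *FBL*, the methyltransferase of ribosomal RNA, with 124, 120 and 100 CPM in CTCF-WT and 63.5, 42.1 and 44.9 CPM in CTCF-dRBR (log2 fold change −1.24 ± 0.17, SE; limma-voom adjusted p = 0.0959), and *NOP56*, a core protein of the same ribonucleoprotein, with 484, 478 and 485 CPM against 356, 340 and 357 CPM (−0.46 ± 0.077, SE; adjusted p = 0.0959). For both genes the CTCF-dRBR libraries lay together below CTCF-WT, replicate 1 included. With the GC trend removed *FBL* was at −0.98 (limma-voom adjusted p = 0.0643) and *NOP56* at −0.2 (adjusted p = 0.388). On the higher side *PPAT*, of purine synthesis, had 94.1, 101 and 121 CPM against 155, 128 and 115 CPM, and *BCAT1*, a branched-chain aminotransferase, 1630, 1630 and 1680 CPM against 2350, 1900 and 1690 CPM (adjusted p = 0.222 and 0.25 by limma-voom), and both were lower, at −0.02 and −0.072 on the log2 scale, with the GC trend removed.

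The exons of the MYC-induced list had a median GC content of 51.1%, above the 46.9% of all genes tested. With the GC trend removed the median log2 fold change was −0.37, 32 of 33 values were negative and 12 were lower with an adjusted p under 0.05, against 5.28% of genes tested. With the replicate block added, or any of CTCF-WT replicates 1 and 2 and CTCF-dRBR replicates 2 and 3 left out, 0 of the 33 were called after removal of the trend, and 4 without CTCF-WT replicate 3 and 24 without CTCF-dRBR replicate 1. On log2(TPM + 1) without rescaling the list median was 0.16, where that of all genes was 0.40. DESeq2 called 15 of the 33 lower, against 6.15% of genes, and limma-voom without CTCF-dRBR replicate 1 called 10, against 2.37%. *NCL*, *NME1*, *DKC1*, *RRP9*, *PHB* and *SLC3A2* were the 6 genes called in all 3 of these fits, named here after their values were seen. The 3 fits are among those that called genes of this list, so their overlap is a description. By edgeR's quasi-likelihood test, limma-voom with DESeq2 size factors or the length trend removed, and limma-trend on rescaled TPM, 0 of the 33 were called. Of the 12 tested genes known to be repressed by MYC, 2 were lower at an unadjusted p under 0.05 (*FTH1* at −0.48 and *DDIT3* at −0.43) and 0 were higher, where 12.6% of all genes were higher. Of these 12, 2 lay wholly above CTCF-WT and 2 wholly below, where 20.0% and 17.5% of all genes did. The 2 above were *CDKN1B* and *BTG1*, both brakes on the cell cycle (log2 fold change 0.16 and 0.18, limma-voom adjusted p = 0.244 and 0.251). Both changed sign, to −0.094 and −0.087, with the GC trend removed. The list median was 0.074.

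Among the partners, MYC co-activator complexes had a median of −0.38 with 5 of 17 tested genes lower and 0 higher at an unadjusted p under 0.05, against 12.8% lower and 12.6% higher over all genes, and its median was −0.085 with the GC trend removed. *DMAP1*, a subunit of the TIP60 acetyltransferase complex, had 29.7, 28.1 and 24.5 CPM in CTCF-WT and 14.1, 14.2 and 17.8 CPM in CTCF-dRBR (log2 fold change −0.83 ± 0.15, SE; limma-voom adjusted p = 0.0959, and 0.0249 with the GC trend removed). *RUVBL1*, an ATPase of the same complex, was at −0.48 (adjusted p = 0.112 by limma-voom) and −0.22 with the trend removed, and *CCNT1*, the cyclin of the elongation kinase P-TEFb, at 0.23 (adjusted p = 0.281) and −0.035. Of the SIN3 co-repressor complex, 1 of 14 genes was higher (*SUDS3*, 0.27) and 2 lower (*BRMS1*, −0.89, and *SAP18*, −0.29) at that threshold, with *ING2* at 0.46 and a median of −0.15. With the trend removed *SUDS3* was at 0.094, *BRMS1* at −0.21, *SAP18* at −0.48 and *ING2* at 0.26. Of the 10 MGA partners in PRC1.6, *TFDP2* was higher, with 21.5, 20.8 and 20.1 CPM against 27.9, 28.2 and 30.3 CPM (0.47 ± 0.11, SE; limma-voom adjusted p = 0.116). *L3MBTL2* (−0.61) and *RING1* (−0.67) were the 2 lower at that threshold, where 12.8% of all genes were, and stood at −0.27 and 0.027 with the trend removed. *RNF2* was at 0.46 with overlapping groups, and the list median was −0.022.

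Of 17 genes of MYC protein turnover, 2 were higher and 2 lower at an unadjusted p under 0.05, around a median of −0.028, and over all genes 12.6% were higher and 12.8% lower. The deubiquitinase *USP28* (0.36) and *KIAA1524*, which encodes the phosphatase inhibitor CIP2A (0.35), were higher, and the ubiquitin ligase *STUB1* (−0.93) and the nucleolar deubiquitinase *USP36* (−0.84) lower. With the GC trend removed these were at 0.17, −0.013, −0.054 and −0.45. Of 8 other E-box factors with a zipper, *TFAP4* (−0.86) and the lysosomal regulator *TFE3* (−0.73) were lower at that threshold, while *MITF* (0.15) and *MYCL* (0.14) had overlapping groups, and the median was −0.33. With the trend removed *TFAP4* was at −0.38, *TFE3* at −0.19, *MITF* at −0.11 and *MYCL* at 0.47, and the median was −0.15. Of 6 targets of MLX and its Mondo partners, *TXNIP*, the arrestin that limits glucose uptake and a classical MLXIP target, had 40.0, 42.6 and 45.4 CPM in CTCF-WT and 52.4, 63.8 and 63.7 CPM in CTCF-dRBR. It was higher in every CTCF-dRBR library, with a log2 fold change of 0.50 ± 0.12 (SE, limma-voom adjusted p = 0.125), where *MLX* was lower. *KLF10* was at 0.26 and the lipogenic enzymes *ACACA* and *FASN* at −0.44 and −0.88, with a list median of −0.24. With the trend removed *FASN* was at −0.021 and the list median turned to 0.054, while *TXNIP* and *ACACA* had no GC value.

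**Figure D5:**
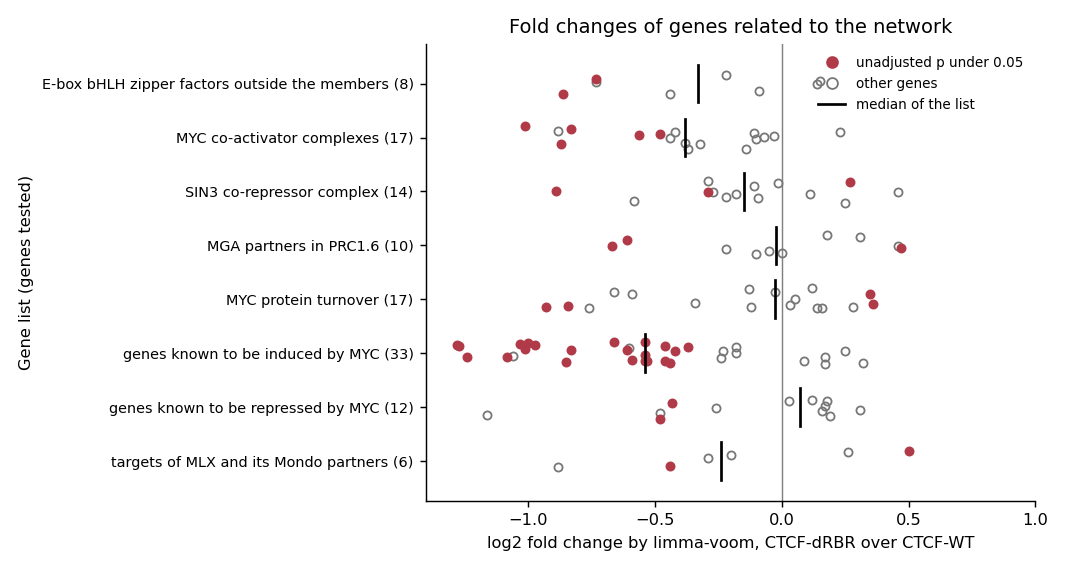
Log2 fold change by limma-voom of each tested gene in 8 lists related to the network, with filled points for an unadjusted p under 0.05 and a black line at the median of each list. The genes known to be induced by MYC lie mostly left of 0 with a median of −0.54, and no gene shown had an adjusted p under 0.05.

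Across the 6 libraries the members fell into 2 sets that ran in opposite directions. *MYC*, *MNT*, *MXD3*, *MXD4*, *MLX* and *MLXIP* correlated positively with each other in log2 CPM (Pearson's r 0.861 to 0.995), and negatively with *MAX*, *MXD1*, *MXI1* and *MGA*. This is a description over 6 libraries that share the GC trend and CTCF-dRBR replicate 1, and the 6 genes of the first set are those of higher GC content. The 3 tested genes closest to each member in this measure had r of 0.9792 or more, such as *FOXM1* for *MYC* (0.9973), *PDE7A* for *MXI1* (0.9993), *PNP* for *MLX* (0.9974), *VPS51* for *MXD4* (0.9992), *BCL2L2* for *MNT* (0.9987), *IBTK* for *MGA* (0.9978) and *IRS1* for both *MXD3* and *MLXIP* (0.9986). The nearest gene to *MAX* was *PEX5L* (0.9873) and to *MXD1* *MPC2* (0.9962).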

How the data were processed

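RNA of 3 samples a group, CTCF-WT and CTCF-dRBR, was depleted of ribosomal RNA and sequenced. The authors trimmed reads with Trim Galore (0.6.3), aligned them with STAR (2.7.9a) to GRCh37 with Gencode annotation, and quantified genes with RSEM (1.3.1), per the submitters' processing notes and the methods. The deposited tables give expected counts and TPM values per gene, made by the authors, and are labelled as stranded, with no further strand setting given in the sources used here. The 92 ERCC sequences listed were at 0 counts.

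Genes with fewer than 1 CPM in every library were removed. Expected counts were normalized by TMM (edgeR 4.0.16) and fitted by limma-voom (limma 3.58.1, R 4.3.3), two-sided, with Benjamini-Hochberg adjustment over all genes tested and a threshold of 0.05. TPM values and ratios were compared by exact permutation tests (smallest p = 0.1). Members with groups that do not overlap were counted in every unit. The share over all genes was computed for CPM, rescaled TPM, CPM with the GC trend removed and implied length. The GC trend was removed by a loess fit (span 0.5, degree 2) of each library's deviation over exon GC content. GRCh37 positions, exon overlaps and GC content came from a lifted Gencode annotation. The fits were tested on simulated counts with planted changes. Those counts held no GC trend and no outlying library, so the test could not address either.

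Genes named were the 10 members, *CTCF*, *PVT1*, from each related list the 2 tested genes of smallest unadjusted p in each direction, and examples from the 3 genes closest to each member by Pearson's r. The members and lists were chosen with earlier results of these data known. Alternatives were edgeR's quasi-likelihood test and DESeq2 (1.42.0), both on rounded counts, voomWithQualityWeights, limma-trend on log2(TPM + 1) or log2(TPM + 0.1), other normalizations and filters, each library left out, the replicate block and trend removal. A gene at 3 counts had 0.05643 to 0.09989 CPM, a limit of counting error only. One marker gene of the B-lineage list is not reported here.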

Additional observations from a re-analysis of the deposited data

How the results depend on the processing

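No member passed an adjusted p of 0.05 by limma-voom, and the count was 1 with DESeq2 and with limma-trend on log2(TPM + 1) or log2(TPM + 0.1), 6 with voomWithQualityWeights, 0 in each fit leaving out a library and, when a library was left out after removal of the GC trend (chosen after seeing the data), 0 to 2, the 2 without CTCF-dRBR replicate 1. These 2 were *MXI1* and *MXD4*, where 23.5% of all genes were called. *MXD4* was called higher there (0.26, limma-voom adjusted p = 0.048) and lower by voomWithQualityWeights (−0.34, adjusted p = 0.023). Of the genes in the related lists, 0 passed by limma-voom, 27 with DESeq2, 88 with voomWithQualityWeights, 22 with the GC trend removed, 17 without CTCF-dRBR replicate 1, and with the trend removed 48 without that library and 8 without CTCF-WT replicate 3. Leaving out a library gave 0 to 48. Over all genes the shares called were 11.5% with DESeq2, 68.2% with voomWithQualityWeights, 9.22% with the trend removed and 3.9% without CTCF-dRBR replicate 1. With the trend removed, 23.5% of all genes were called without that library, and 694 of 13624 without CTCF-WT replicate 3. Members whose groups did not overlap in CPM numbered 3 (37.5% of all genes), and 6 without CTCF-WT replicate 3 (61.5%) and 7 without CTCF-dRBR replicate 3 (64.8%). In TPM the count was 2, and 4 with rescaling to protein-coding genes (34.6% of all genes), 5 without CTCF-WT replicate 3 and 4 without CTCF-dRBR replicate 1. The share of all genes was not computed for TPM without rescaling, so those counts are not read as a result about the members. Of the ratios to *MAX*, 2 did not overlap, and 4 did not as a ratio of CPM, with or without the GC trend, 6 without CTCF-WT replicate 3 and 5 without CTCF-dRBR replicate 2. No share over all genes was computed for such ratios. The causes were not tested.

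The signs of *MXI1*, *MLX* and *CTCF* were the same in all 26 other fits. On log2(TPM + 1) and log2(TPM + 0.1) the log2 fold change turned to 0.20 and 0.21 for *MYC*, 0.085 and 0.13 for *MNT*, 0.35 and 0.38 for *MXD3*, 0.22 and 0.26 for *MXD4* and 0.35 and 0.38 for *PVT1*, and on log2(TPM + 1) to 0.0018 for *MLXIP*, where the median of all genes was 0.40 and 0.54. With the GC trend removed it turned to −0.062 for *MXD1*, −0.073 for *MGA*, 0.16 for *MXD3*, 0.18 for *MXD4* and 0.17 for *MLXIP*. *MGA* was at −0.0087 with the length trend removed, and *MAX* at −0.0074 with voomWithQualityWeights. Leaving out each library moved *MYC* from −0.47 to −0.091, *MNT* from −0.93 to −0.48, *MXD1* from 0.088 to 0.17, *MXD3* from −0.72 to −0.10, *MXD4* from −0.83 to −0.051, *MGA* from −0.00082 to 0.24 and *MLXIP* from −0.47 to −0.0012. With the GC trend also removed the ranges were −0.17 to 0.0013 for *MYC*, −0.17 to 0.025 for *MNT*, −0.12 to −0.015 for *MXD1*, 0.03 to 0.24 for *MXD3*, 0.12 to 0.26 for *MXD4*, −0.11 to −0.043 for *MGA* and 0.066 to 0.24 for *MLXIP*. Rescaling TPM to protein-coding genes turned the difference in means to −20.8 for *MYC*, −0.783 for *MNT*, −0.543 for *MXD3*, −0.707 for *MXD4* and −2.23 for *MLXIP*, which in deposited TPM ran from −0.258 to 0.787 when each library was left out. The log2 ratio to *MAX* turned to −0.022 for *MXD1* and −0.018 for *MGA* in CPM, and to −0.31 for both with the GC trend removed. Leaving out each library moved it from −0.015 to 0.36 for *MXD1*, −0.74 to 0.057 for *MXD3* and −0.94 to 0.015 for *MXD4*.

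Libraries of the same replicate number did not deviate together (Pearson's r across genes −0.341, 0.0993 and −0.471). With the replicate block 0 members and 0 genes of the related lists passed, *MXI1* was at 0.63 and *MLX* at −0.65, and 4 of the 9 ratios to *MAX* moved the same way in all 3 same-numbered pairs. With the GC trend removed and the replicate block the log2 fold change was −0.064 for *MXD1*, 0.16 for *MXD3*, 0.18 for *MXD4*, −0.072 for *MGA* and 0.17 for *MLXIP*, and 0 members and 0 genes of the related lists passed.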
